A study of Homo sapiens with 4 samples.

Results

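The regions described here are TCF3 peaks at the ends of protein-coding genes that shared no base with a listed ATOH8 peak. They come from chromatin immunoprecipitation and sequencing (ChIP-seq) of the prostate cancer line DU145, which is long established in culture. A peak of the TCF3 list was taken when its midpoint lay within 1 kb of either end of a RefSeq protein-coding gene. Of 11330 TCF3 peaks on chromosomes 1 to 22 and X, 2749 met this rule (24.3%, Wilson 95% interval 23.5 to 25.1%), and they covered 2.6 Mb. They are called TCF3-only gene-end peaks below. A further 1054 TCF3 peaks at gene ends shared at least 1 base with an ATOH8 peak and serve as the comparison. The libraries were a Myc ChIP for TCF3, a Flag ChIP for ATOH8 and an input for each, 4 libraries with 1 per group, all from DU145 cells fixed with 1% formaldehyde for 10 min. The labels do not say how the tagged proteins were expressed or whether the cells were 1 clone. The input libraries were not analysed here.

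TCF3 is an E protein, a broadly expressed member of the basic helix-loop-helix (bHLH) family. E proteins bind DNA as dimers, with themselves or with tissue-specific bHLH partners such as the proneural and myogenic factors, at a short word called the E-box, CANNTG, where N is any base. ID proteins lack the DNA-binding part and hold E proteins off DNA. The peaks have a position, a width and a score given by the authors. No source used here defines the score. It is used only to describe and rank peaks within the TCF3 list. There was 1 library per factor, so no difference below was tested over replicates, and the intervals reflect counting error alone. The lists may be held in part, since TCF3 scores jumped from 887 to 280 at an empty line. A gene without a listed peak was therefore not taken as unbound, and a TCF3-only peak may still have had an ATOH8 peak that was not analysed here. Peaks give no expression, so the prostate label was not checked against marker genes.

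To show the sequence under these peaks, 6 promoters are printed as the 250 bases before the start in the RefSeq promoter table, 5′ to 3′ (GRCh38.p14). They are the highest-scoring TCF3-only peaks of the transcription factor and signalling lists that cover a whole promoter window. Capitals mark each E-box match, CANNTG on either strand.
ISL1: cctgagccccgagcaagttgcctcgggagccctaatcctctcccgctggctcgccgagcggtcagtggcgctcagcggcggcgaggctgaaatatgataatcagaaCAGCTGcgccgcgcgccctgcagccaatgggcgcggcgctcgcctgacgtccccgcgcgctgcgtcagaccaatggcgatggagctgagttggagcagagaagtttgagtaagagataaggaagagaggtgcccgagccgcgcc
TBX5: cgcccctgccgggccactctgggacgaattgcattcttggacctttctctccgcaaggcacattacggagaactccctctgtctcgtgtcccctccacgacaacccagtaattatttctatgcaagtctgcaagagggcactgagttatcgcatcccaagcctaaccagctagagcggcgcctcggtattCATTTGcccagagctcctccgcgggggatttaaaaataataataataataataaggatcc
FOXB2: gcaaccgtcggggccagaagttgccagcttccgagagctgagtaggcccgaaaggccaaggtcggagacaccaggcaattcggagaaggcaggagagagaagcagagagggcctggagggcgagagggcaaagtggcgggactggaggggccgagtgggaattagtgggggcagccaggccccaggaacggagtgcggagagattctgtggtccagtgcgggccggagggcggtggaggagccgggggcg
FOXD4L4: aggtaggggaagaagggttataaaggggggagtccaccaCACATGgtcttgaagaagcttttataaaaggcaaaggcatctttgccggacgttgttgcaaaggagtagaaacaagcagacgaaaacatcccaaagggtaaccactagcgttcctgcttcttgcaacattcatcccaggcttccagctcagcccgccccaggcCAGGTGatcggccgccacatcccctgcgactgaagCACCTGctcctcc
PITX1: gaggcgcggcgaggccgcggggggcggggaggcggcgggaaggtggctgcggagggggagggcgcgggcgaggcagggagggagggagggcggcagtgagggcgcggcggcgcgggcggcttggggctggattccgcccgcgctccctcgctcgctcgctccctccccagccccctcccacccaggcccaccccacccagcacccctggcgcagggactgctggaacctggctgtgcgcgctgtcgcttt
ID4: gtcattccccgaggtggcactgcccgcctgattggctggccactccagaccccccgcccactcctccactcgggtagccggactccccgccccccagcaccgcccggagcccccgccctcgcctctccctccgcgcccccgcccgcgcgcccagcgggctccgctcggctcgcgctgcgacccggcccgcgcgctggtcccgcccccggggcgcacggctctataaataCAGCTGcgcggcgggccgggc
The ISL1 stretch is chr5:51383198-51383447 on the plus strand, under a peak of score 240 from 51382682 to 51383710. The TBX5 stretch is chr12:114408443-114408692 on the minus strand, under a peak of score 240 from 114406421 to 114409946. The FOXB2 stretch is chr9:77019405-77019654 on the plus strand, under a peak of score 227 from 77018303 to 77021223. The FOXD4L4 stretch is chr9:65736896-65737145 on the plus strand, under a peak of score 215 from 65736657 to 65738177. The PITX1 stretch is chr5:135034229-135034478 on the minus strand, under a peak of score 202 from 135032788 to 135034843. The ID4 stretch is chr6:19837120-19837369 on the plus strand, under a peak of score 202 from 19836936 to 19839208. ISL1 and TBX5 encode developmental factors of heart and limb, FOXB2 and FOXD4L4 forkhead factors, PITX1 a hindlimb homeobox factor and ID4 an inhibitor of bHLH proteins. ISL1 and ID4 have 1 E-box each, CAGCTG in both, at offsets of -144 and -21 from the gene start. TBX5 also has 1 E-box, CATTTG, at an offset of -60. FOXD4L4 has 3, and 2 of them are the forms CAGGTG and CACCTG, which read the same on opposite strands. FOXB2 and PITX1 have none in these 250 bases. The promoter start of PITX1 lies inside the RefSeq gene span, so its printed bases are within the gene as annotated. The G and C content of the stretches runs from 51.2% at TBX5 to 79.2% at PITX1. FOXD4L4 belongs to a set of near-identical copies, and no source used here says how reads were shared among copies.

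The TCF3-only gene-end peaks lay mostly at gene starts, with their centres a little inside the gene. The strand of the nearest gene was known for 2124 of them. The nearest end was the gene start in 1885 (88.7%, Wilson 95% interval 87.3 to 90%) and the other end in 239. Among shared gene-end peaks of known strand the start was nearest in 803 of 823 (97.6%, 96.3 to 98.4%). The share was therefore lower among TCF3-only peaks by 8.82 percentage points (a difference of -8.82, 95% interval -10.5 to -7.01). TCF3-only peaks with a midpoint 1 to 5 kb from a gene end were nearest to a start in 740 of 1160 cases (63.8%). Read the other way, 92.3% of 259 TCF3 peaks nearest to the far end of a gene were TCF3-only (88.4 to 94.9%), against 70.1% of 2688 nearest to a start (68.4 to 71.8%). Some of these far ends belong to very short genes: 38.5% of the 239 were at genes under 3 kb long, against 11.2% of the 1885 at starts and 9.54% of all protein-coding genes.

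At starts, the median midpoint was 290 bp inside the gene, with quartiles at 95 and 462 bp, and 82.6% of midpoints were downstream of the start. The 250 bp bin with most peaks was the one from 250 to 500 bp inside, with 671 of 1885 (35.6%), followed by 483 from the start to 250 bp inside (25.6%). Only 194 midpoints lay in the 250 bp upstream (10.3%). Shared gene-end peaks had a like profile, with a median of 313 bp inside and 38.7% between 250 and 500 bp. The peak itself spanned the annotated start in 55.8% of TCF3-only cases (53.6 to 58%) and 47.2% of shared ones (43.8 to 50.7%). At far ends 64.4% of TCF3-only midpoints were inside the gene (58.2 to 70.2%), and the 250 bp bins from 500 bp outside to 1000 bp inside held 6.28 to 18.8% each.

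**Figure D1:**
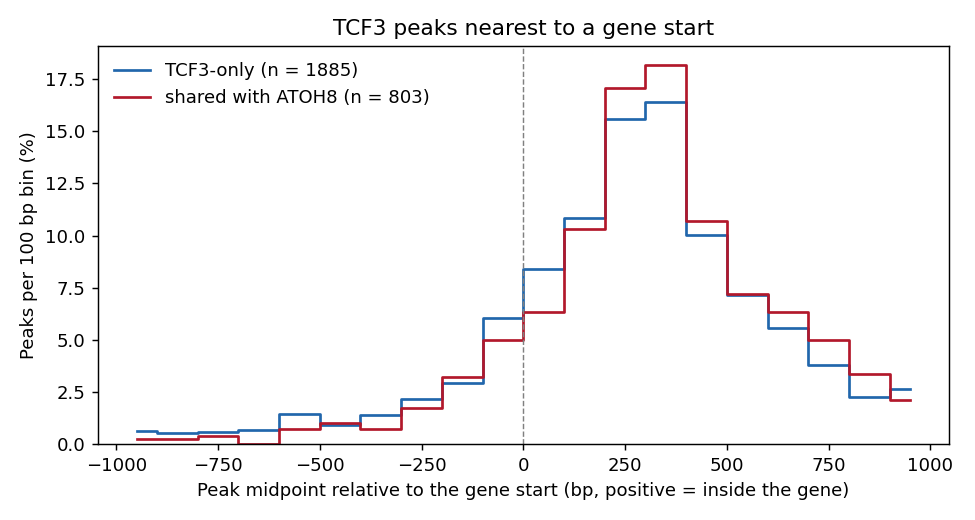
Position of TCF3 peak midpoints relative to the nearest gene start, in bp on the x axis (positive is inside the gene), as the percent of peaks in each 100 bp bin on the y axis. Blue is the 1885 TCF3-only peaks and red the 803 peaks shared with ATOH8; both rise to their highest bins between 200 and 400 bp inside the gene.

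The rule picked no peak by its score or width, but both come from the same list. TCF3-only gene-end peaks had a median score of 68 (quartiles 46 and 99), against 76 (53 and 103) for shared gene-end peaks and 57 (44 and 80) for TCF3-only peaks 1 to 5 kb away. Low scores from 35 to 49 made up 26.8% of the TCF3-only gene-end peaks and 17.2% of the shared ones. At the upper end the classes were alike in share, with 3.27% and 3.51% scoring from 200 to 280. Only 1 TCF3-only gene-end peak scored above 280 (0.0364%), beside 0 shared gene-end peaks and 22 of all TCF3 peaks (0.194%). Since the listed scores jump from 887 to 280, the upper end may not be complete. Median widths were 749 bp for TCF3-only and 786 bp for shared peaks at gene ends, and 190 TCF3-only peaks (6.91%) were at least 2000 bp wide. Score and width rose together among the 2749 peaks (Spearman rho 0.34, a description over peaks of 1 library). The share nearest to a start was 82.3% among the lowest-scoring peaks, those from 36 to 46 (429 of 521 of known strand, 78.8 to 85.4%), and 92.4% among the highest-scoring, from 99 up (500 of 541, 89.9 to 94.4%).

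**Figure D2:**
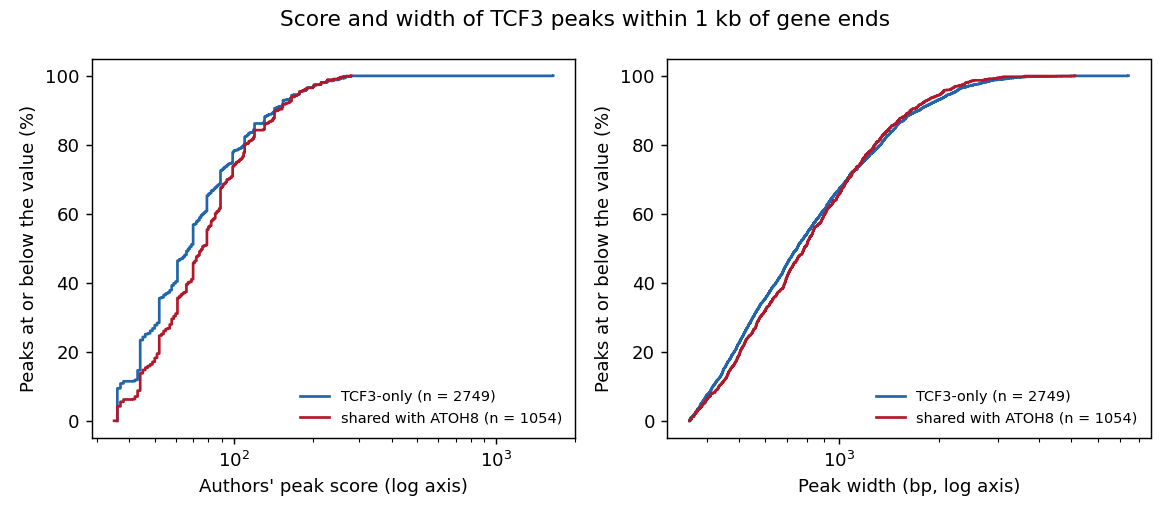
Cumulative percent of peaks (y axes) by the authors' score (left, log axis) and by width in bp (right, log axis), for 2749 TCF3-only peaks (blue) and 1054 shared peaks (red) at gene ends. The score curve of the TCF3-only peaks lies to the left at low scores (medians 68 and 76), and the curves come together towards 200.

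The highest score, 1650, belonged to a peak on chromosome 5 from 17517594 to 17518189, 476 bp from TAF11L3, a member of a duplicated gene family. Below it, on the lower side of the jump in listed scores, 5 peaks shared the score 280. They lay at the starts of KCTD8, which encodes an auxiliary subunit of GABA-B receptors, SCGN, a calcium-binding protein gene, and POM121L12. The others lay at the far end of GABRG3, a GABA-A receptor subunit gene, and at LOC124905050, within 1 kb of ADAMTS5, which encodes a protease of cartilage matrix. Next came ADAMTS18 (278), a secreted protease gene, CTXND1 (269), and TRIM58, NWD2, GABRB2 and AUTS2 (267 each). GABRB2 encodes another GABA-A receptor subunit, and AUTS2 is a neurodevelopmental gene. Of these 12 peaks, 10 had a gene start as their nearest end. The widest peak, 7425 bp with score 264, covered the start of PCDH7, a protocadherin gene. Peaks of 4996 bp at CBLN1, a synaptic organiser gene, and of 4971 bp at NKX6-2, a homeobox gene, followed.

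The limit of 1 kb fell among peaks of ordinary score. Just inside it were a peak at NALCN, a sodium leak channel gene (1000 bp, score 44), and one at OR9Q1, an olfactory receptor gene (999 bp, score 70). Just outside were peaks at VSTM2B (1004 bp, score 50) and FOXP1, a forkhead gene (1005 bp, score 52).

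A TCF3-only peak lay within 1 kb of an end of 2903 genes out of 19974 that code for protein, which is 14.5% and serves as the background for the lists below. A shared TCF3 peak was listed at 1178 genes (5.9%), any TCF3 peak at 4047 (20.3%) and any ATOH8 peak at 3515 (17.6%). Of the 2903 genes, 119 (4.1%, or 0.596% of all protein-coding genes) also had a separate ATOH8 peak within 1 kb. A single TCF3-only peak lay at 2778 genes, 117 had 2 and 8 had 3. Among the 8 were LCE1F, a cornified envelope gene, SLC9A3, a sodium-proton exchanger gene, and LOC124901163. Conversely, 276 peaks served 2 or more genes, and 130 lay within 1 kb of gene starts on both strands.

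Of 6 families of developmental transcription factors, the SOX, HOX, other homeobox and forkhead genes had whole intervals above the background, and the T-box and GATA genes did not. SOX genes, which encode HMG box factors of cell fate, had a TCF3-only peak in 12 of 19 cases (63.2%, Wilson 95% interval 41 to 80.9%, beside 14.5% of all genes). SOX11, a neural and mesenchymal factor, scored 253 with a peak of 3781 bp, and SOX14 and SOX1 scored 120. Homeobox and PAX genes outside the HOX clusters did so in 73 of 159 cases (45.9%, 38.4 to 53.7%), with ISL1 (240), PITX1 (202) and LHX6 (190), an interneuron factor, highest. Of the HOX genes, which set position along the body axis, 16 of 39 had one (41%, 27.1 to 56.6%). HOXA3, HOXA9 and HOXA13 each scored 120. None of the 39 had a shared TCF3 peak, beside 5.9% of all genes, a share that would give few in a list of this size. Forkhead genes had one in 19 of 51 cases (37.3%, 25.3 to 51%), led by FOXB2 (227), FOXD4L4 (215) and FOXQ1 (178). T-box genes had one in 5 of 16 (31.2%, 14.2 to 55.6%), TBX5 (240), TBX2 (107) and TBX20 (61) highest. The interval of that list reached down to the background. Among GATA genes only GATA5 (75) had one, 1 of 6.

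The bHLH genes that encode partners of E proteins, with the E proteins, had a TCF3-only peak in 23 of 47 cases (48.9%, 35.3 to 62.8%), on 28 distinct peaks. The highest were at BHLHE22 (253), a neuronal factor, ASCL4 (190) and TWIST1 (178), a mesodermal factor. The E protein genes themselves, TCF3, TCF4 and TCF12, were not among the 23, though TCF12 had a shared TCF3 peak (154). The proneural factor NEUROG2 was among the 23, at 94, and so were the myogenic factors MYOD1, MYF5 (44 each) and MYF6 (52), genes picked here after their values were seen. The ID and HES/HEY genes, inhibitors of bHLH factors, had one in 2 of 14 cases (14.3%, 4.01 to 39.9%), a share next to the background, at ID4 (202) and HEY2 (37). Any ATOH8 peak lay at 6 of those 14 (42.9%) and at 7 of the 47 bHLH genes (14.9%), beside 17.6% of all genes.

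Signalling genes followed. Genes of the BMP pathway, which acts through SMAD proteins, had a TCF3-only peak in 16 of 40 cases (40%, 26.3 to 55.4%). Among the highest were GDF10 (119), a ligand of the superfamily, and GREM1 (110), which encodes an antagonist that binds BMPs. WNT ligands, Frizzled receptors and their antagonists had one in 10 of 39 cases (25.6%, 14.6 to 41.1%), with the receptor FZD10 (154), the ligand WNT2 (119) and the antagonist SFRP1 (89) highest. Its interval began at the background. Transcription factors of epithelial-mesenchymal transition had one in 5 of 12 (41.7%, 19.3 to 68%), and TWIST1 (178), GSC (166) and FOXC2 (67) are counted in the lists above too.

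Gene clusters formed another part of the set. The epidermal differentiation genes of chromosome 1, which build the cornified envelope of skin, had a TCF3-only peak in 27 of 54 cases (50%, 37.1 to 62.9%), on 34 distinct peaks. LCE2A scored 250, LCE1C 215 and LCE3E 190, and a shared TCF3 peak was listed at 2 of the 54, beside 5.9% of all genes. The megabase from 152000001 to 153000000 on chromosome 1 held 29 TCF3-only gene-end peaks, more than any other. Clustered protocadherins, neuronal adhesion proteins made from tandem genes on chromosome 5, had one in 18 of 53 cases (34%, 22.7 to 47.4%), with PCDHGB6 (207), PCDHGA5 (154) and PCDHA11 (131) highest. POTE and TAF11L genes in duplicated regions did so in 11 of 26 (42.3%, 25.5 to 61.1%), TAF11L3, POTED (227) and POTEB3 (202) among them, and these copies can share reads. Keratin genes had one in 9 of 55 (16.4%), KRT83 (110), KRT84 (99) and KRT1 (61) highest.

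Several of these clusters packed many TCF3-only gene-end peaks into a short stretch, 29 of the 39 TCF3 peaks in the epidermal megabase. Leaving out megabase bins with 20 or more TCF3 peaks took the epidermal list from 27 genes to 0, the protocadherins from 18 to 0, POTE and TAF11L genes from 11 to 3, HOX genes from 16 to 8 and keratin genes from 9 to 6. That step counts the TCF3-only gene-end peaks themselves, so it partly removes a list because of its own peaks. When only the other TCF3 peaks were counted towards the 20, an alternative added after seeing the data, the epidermal list kept a count of 27, HOX 16 and keratin 9, POTE and TAF11L genes came to 9, and the protocadherins to 6. The list counts were 12 SOX, 19 forkhead and 16 BMP genes under both versions. Other homeobox and PAX genes came to 71 with the first and 73 with the second, and bHLH genes to 22 and 23, beside 12.9% and 14.1% of all genes. Genes in the bins left out stayed in the list and background totals, so the counts and both percentages could only fall. Of the TCF3-only gene-end peaks, 337 lay in bins of the first kind (12.3%) and 97 in bins of the second. The part of copy number or repeated sequence in these clusters was not tested.

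Genes of basic cell machinery and large gene families had shares below or near the background of 14.5%. Proteasome genes had a TCF3-only peak in 2 of 48 cases (4.17%, 1.15 to 14%), PSMD11 (43) and PSME3 (42). Mitochondrial ribosomal protein genes had one in 5 of 77 (6.49%, 2.81 to 14.3%), with MRPL14 (92), MRPS6 (89) and MRPS34 (52) highest. Cytosolic ribosomal protein genes had one in 9 of 86 (10.5%), RPL10L (143), a retrocopy expressed in testis, RPL7 (89) and RPS7 (87) highest. Nuclear genes of the respiratory chain had one in 9 of 95 (9.47%), NDUFAF8 (110), SDHA (93) and ATP5ME (85) highest. Histone genes had one in 14 of 86 (16.3%), H3C3 (99), H1-10 (89) and H2AZ1 (89) highest. Housekeeping genes had one in 4 of 22 (18.2%), with SDHA (93), EEF2 (85) and GAPDH (79) highest. ZNF genes, many of them on chromosome 19, had one in 56 of 510 (11%, 8.55 to 14%), ZNF177 (193), ZNF282 (181) and ZNF536 (178) highest. Olfactory receptor genes had one in 34 of 392 (8.67%, 6.27 to 11.9%), among them OR2L13 (215), and OR3A2 and OR1R1, which share a single peak (139). None of the 392 had a shared TCF3 peak or an ATOH8 peak, beside 5.9% and 17.6% of all genes. Cyclins and their kinases had one in 9 of 46 (19.6%), CCNK (141), CDK6 (131) and CCNE1 (110) highest, and CDK inhibitor genes in 0 of 8.

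The series title names ferroptosis, an iron-dependent cell death by lipid peroxidation, and SCD. SCD had no TCF3-only peak within 1 kb, and any shared TCF3 or ATOH8 peak at SCD is not reported here. Ferroptosis suppressor genes had one in 1 of 28 cases (3.57%, 0.633 to 17.7%), at ACSL3 (65), which activates fatty acids. Of the 28, 5 had a shared TCF3 peak (17.9%, beside 5.9% of all genes) and 13 any ATOH8 peak (46.4%, beside 17.6%). Ferroptosis promoter genes had one in 2 of 26 (7.69%), ALOX5 (89), a lipoxygenase gene, and NOX4 (43), an oxidase gene. Genes of fatty acid and sterol synthesis had one in 8 of 39 (20.5%, 10.8 to 35.5%), with the fatty acid elongases ELOVL2 (131) and ELOVL7 (99) and the synthase FASN (95) highest. Of those 8, 2 also had a separate ATOH8 peak within 1 kb, a small count, beside 4.1% of all genes with a TCF3-only peak. Any ATOH8 peak lay at 13 of the 39 (33.3%, beside 17.6% of all genes). Hypoxia response genes had a TCF3-only peak in 1 of 25 (4%), BNIP3 (64). A shared peak lay at 4 of the 25 (16%, beside 5.9% of all genes) and any ATOH8 peak at 11 (44%, beside 17.6%). Epithelial junction genes had one in 9 of 56 (16.1%), CLDN11 (116), CLDN17 (79) and GJB2 (70) highest, and prostate markers in 2 of 18 (11.1%), TRIM29 (52) highest.

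Across the 31 lists written down, 11 had a whole Wilson interval above the background and 4 had one below it, with no adjustment for the number of lists. These 31 lists were themselves chosen with earlier results of these data known. The 11 were the HOX, other homeobox, SOX, forkhead, bHLH, BMP, WNT, protocadherin, epidermal, EMT factor and POTE lists. The 4 were the proteasome, mitochondrial ribosome, ZNF and olfactory receptor lists. Genes in a cluster and lists with common members are not independent, so these counts are a description.

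**Figure D3:**
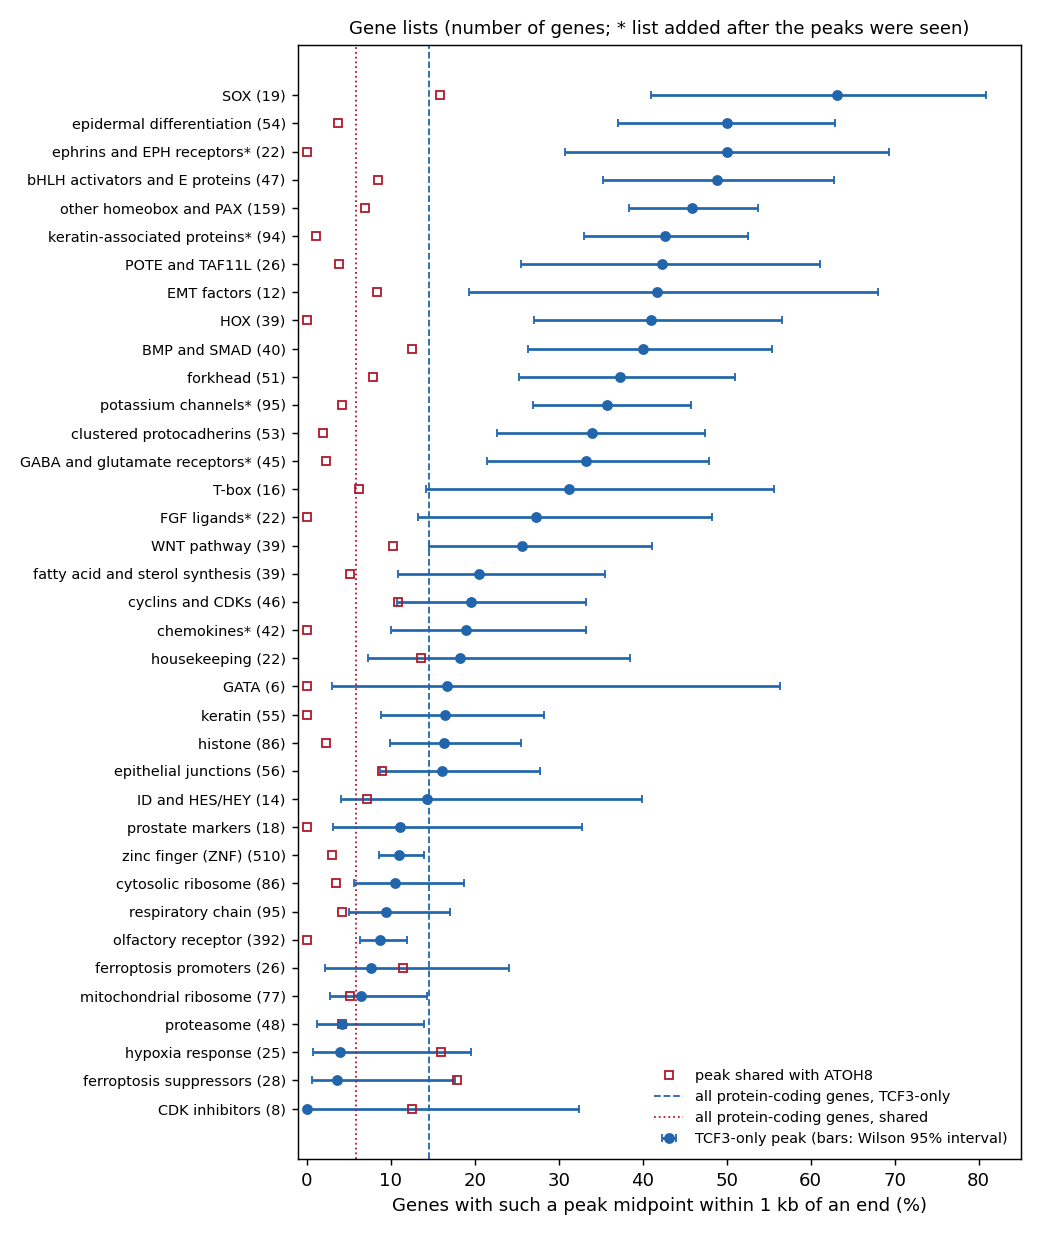
Percent of genes in each list (x axis) with a TCF3-only peak within 1 kb of an end (blue points, Wilson 95% intervals) and with a shared TCF3 peak (red squares). The number of genes is in brackets. An asterisk marks lists added after the highest peaks had been seen, and the others were chosen with earlier results of these data known. Dashed and dotted lines give the shares of all protein-coding genes, 14.5% and 5.9%, and SOX genes are highest at 63.2%.

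The sequence under the peaks was described over RefSeq promoter windows, from 250 bases before the promoter start to 50 after it, with 1 window per gene. That start can lie inside the gene span used for the positions above, as at PITX1. Of 15812 windows, 658 lay wholly inside a TCF3-only gene-end peak, on 626 distinct peaks, so narrow peaks are left out here. The windows end 50 bases past the promoter start, while the median peak midpoint lay 290 bp inside the gene, so the sequence at most peak centres was not searched. Their median G and C content was 72.7%, against 76.7% under shared gene-end peaks, 60% where no peak touched the window and 62.7% over all windows. The median ratio of observed to expected CpG dinucleotides was 0.88, against 0.93, 0.69 and 0.76 in the same order.

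E-boxes were not more frequent under the TCF3-only peaks when all windows were taken. CANNTG, searched on both strands, occurred in 355 of the 658 windows (54%, Wilson 95% interval 50.1 to 57.7%), in 57.4% of 244 windows under shared peaks, in 66.2% of 11870 windows with no peak and in 64.6% of all windows. The difference from windows with no peak was -12.3 points (-16.2 to -8.4). The form CAGCTG, which E proteins are known to bind, occurred in 15% of the TCF3-only windows (12.5 to 18%) and 17.5% of all windows. CAGGTG, read as CACCTG on the other strand, occurred in 19.3% (16.5 to 22.5%) and 19.9%. Both forms are themselves matches to CANNTG. Windows under an ATOH8 peak with no TCF3 peak had these words more often, CAGCTG in 29.3% of 764 and CAGGTG in 33.9%. The TCF3-only share was lower by 14.3 points for CAGCTG (a difference of -14.3, -18.5 to -9.99) and by 14.6 for CAGGTG (a difference of -14.6, -19 to -10).

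Base composition moved with this comparison. Among windows with 55 to 65% G and C, a range set after the data were seen, CANNTG occurred in 87 of 111 TCF3-only windows (78.4%, 69.8 to 85%) and in 67.7% of 4155 windows with no peak. The difference was then 10.7 points (2.07 to 17.5), the opposite direction to that over all windows. For CAGCTG and CAGGTG the differences in this range were 2.84 (-4.05 to 11.5) and 0.69 points (-6.2 to 9.39), and both intervals include 0. Against windows under an ATOH8 peak alone, 120 in this range, the differences were -5.79 points for CANNTG (-15.9 to 4.29), -7.48 for CAGCTG (-18.5 to 3.93) and -12.5 for CAGGTG (-23.6 to -0.757), so that only the interval of CAGGTG left out 0. The TATA word TATAAA also turned, from 7.45% against 11% over all windows to 15.3% (9.79 to 23.2%) against 5.87% (5.2 to 6.63%) in the range. The GC box word GGGCGG occurred in 79.3% of TCF3-only windows against 51.1% with no peak, and in 51.4% against 54.1% in the range. By score, CANNTG occurred in 53.3% of the 165 windows under the lowest-scoring TCF3-only peaks (45.7 to 60.8%) and 58.8% of the 165 under the highest-scoring (51.2 to 66%). In the same order CAGCTG occurred in 16.4% (11.5 to 22.8%) and 21.2% (15.7 to 28.1%). CAGGTG went the other way, from 20.6% (15.1 to 27.4%) to 13.3% (8.97 to 19.4%). The intervals overlapped for each word.

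**Figure D4:**
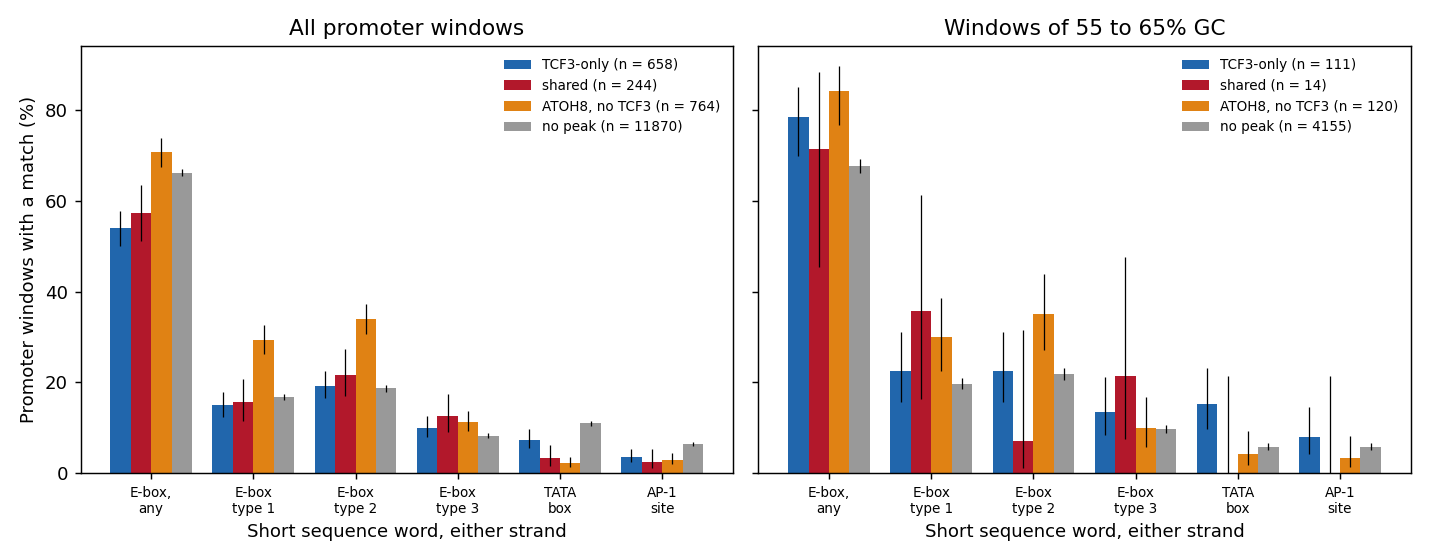
Percent of promoter windows (y axis) with a match to each word on either strand, for all windows (left) and windows of 55 to 65% GC (right), with Wilson 95% intervals; any E-box is CANNTG. E-box type 1 is CAGCTG, type 2 is CAGGTG and type 3 is CACGTG. The word for the TATA box is TATAAA, and that for the AP-1 site is TGANTCA. The TCF3-only bar for any E-box is below the no-peak bar on the left (54% and 66.2%) and above it on the right (78.4% and 67.7%).

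The share of genes with a TCF3-only gene-end peak varied between chromosomes. It was highest on chromosome 21, with 65 of 239 genes (27.2%, 21.9 to 33.2%), followed by chromosomes 5 (21.9%), 8 (21.8%), 10 (21.3%) and 20 (21.2%). It was lowest on X, with 23 of 848 genes (2.71%, 1.81 to 4.04%), and on chromosome 19, with 113 of 1451 (7.79%, 6.52 to 9.28%). TCF3 peaks of all kinds numbered 50 on X and 272 on chromosome 21. Of the 66 TCF3-only gene-end peaks on chromosome 21, 17 lay in the megabase from 44000001 to 45000000. Another 16 lay in the megabase from 30000001 to 31000000. Both megabases hold clustered keratin-associated protein genes. Genes in a cluster are not independent, which the interval for this chromosome does not reflect. DU145 has an altered chromosome number, and the part of copy number in these shares was not tested.

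**Figure D5:**
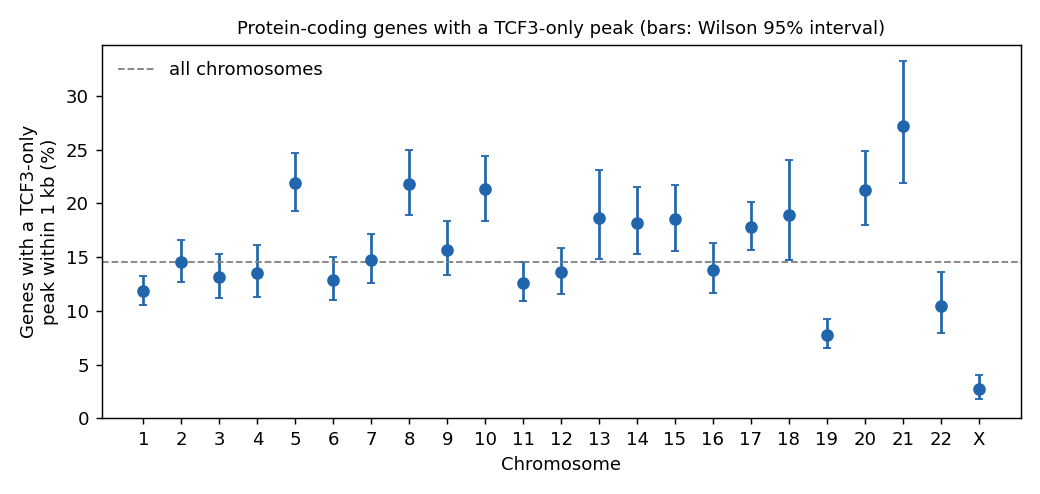
Percent of protein-coding genes with a TCF3-only peak within 1 kb of an end (y axis) on each chromosome (x axis), with Wilson 95% intervals; the dashed line is the share over all chromosomes, 14.5%. Chromosome 21 is highest at 27.2% and X lowest at 2.71%.

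The gap from a TCF3-only gene-end peak to the nearest ATOH8 peak had a median of 148000 bp and quartiles of 49300 and 390000 bp. The rule fixes that no gap is 0. An ATOH8 peak lay within 200 bp of 18 peaks (0.655%) and within 1000 bp of 72 (2.62%, 2.09 to 3.29%). The gaps of other TCF3 peaks and of gene ends in general are not given here. Whether the gaps of this set are ordinary was not tested. Requiring no ATOH8 peak within 1 kb left 2677 peaks.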

How the data were processed

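Peak lists of 2 ChIP libraries were analysed, 1 per factor, as the authors deposited them. Each peak carries a position and the authors' own deposited score. The build was hg38 per the submitters' processing notes. Not given in the sources used here: aligner, peak caller, threshold, use of the input, depth and the base from which coordinates count. Lines without a peak (5 in the TCF3 list, 3 in the ATOH8 list) were skipped. Gene ends came from RefSeq GRCh38.p14. Strand came from the RefSeq promoter table, which held 15813 of 19974 protein-coding genes. Peaks whose nearest gene had no entry were left out of the counts by end. Where a gene had several promoter windows, the most upstream was used. Shares have Wilson 95% intervals and differences Newcombe intervals, which cover counting only, and no test was run. The members, lists and alternatives were chosen with earlier results of these data known. Named genes are the 12 highest-scoring peaks, the 3 widest, the 2 on each side of the limit, 3 of the genes with most peaks and the 3 highest per list, except that some of these are not reported here. The scripts recovered all 6 quantities planted in simulated data. Python 3.11.15, numpy 2.4.6, pandas 2.3.3, scipy 1.17.1 and matplotlib 3.10.9 were used. Alternatives were windows of 500 bp and 2 kb, no ATOH8 peak within 1 kb, the higher-ranked 50% of TCF3 peaks, no top 1% of scores, no bins with 20 or more TCF3 peaks and all annotated genes.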

Additional observations from a re-analysis of the deposited data

How the results depend on the processing

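The number of TCF3-only gene-end peaks was 1516 among the higher-ranked 50% of TCF3 peaks and 5335 with the ends of all annotated genes in place of protein-coding ones. The other alternatives gave 1946 to 3430, and 1630 genes had a peak with the higher-ranked 50%. The share nearest to a start was 92.6% in a 500 bp window, 84.9% in a 2 kb window, 91.6% with the higher-ranked 50% and 91% without bins of 20 or more TCF3 peaks (crowded bins). Its difference from shared peaks was -5.39, -11.5, -6.98 and -6.83 points in the same order, below 0 in each. The lists with a whole interval above the background numbered 7 without crowded bins: the HOX, WNT, protocadherin, epidermal and POTE lists left and the T-box list entered. With crowding counted over TCF3 peaks outside the set, added later, they numbered 10, with the WNT and protocadherin lists out and the T-box list in. Both versions dropped peaks only. The genes of those bins stayed in every total, so a clustered list could only lose genes, and its share outside such bins was not estimated. With the higher-ranked 50% of peaks the median score was 89 and the median width 880 bp, and the 500 bp window gave a median width of 699 bp. Within 55 to 65% GC, chosen after seeing the data, CANNTG occurred in 78.4% of windows and CAGCTG and CAGGTG in 22.5% each. Counting windows with at least 1 base under a peak, also added later, gave 57.2, 16.3 and 20.6%. A 2 kb window gave 40 protocadherin genes in place of 18, and a 500 bp window gave 6 SOX genes in place of 12, 13 bHLH genes in place of 23 (11 with the higher-ranked 50%), 6 WNT genes in place of 10 and 47 other homeobox and PAX genes in place of 73, beside 2059 genes in all. With promoter windows of every RefSeq gene, added later, 29 of the 239 peaks at far ends overlapped a promoter window. No paired analysis was possible because each group has 1 library.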

Other observations

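Other gene families were counted after the highest peaks had been seen, so their shares and scores describe the same peaks that led to them. Keratin-associated protein genes, which encode the matrix of the hair shaft, had a TCF3-only peak within 1 kb in 40 of 94 cases (42.6%, Wilson 95% interval 33 to 52.6%, beside 14.5% of all genes), with KRTAP13-4 (227), KRTAP13-1 (141) and KRTAP4-11 (120) highest. A shared TCF3 peak was listed at 1 of the 94, beside 5.9% of all genes. Without megabase bins of 20 or more TCF3 peaks, 2 of the 40 were left, but those bins passed the count largely through these peaks, and with only the other TCF3 peaks counted 40 were left. Chemokine genes had one in 8 of 42 cases (19%), CCL3L3 (120), CXCL14 (70) and CCL8 (61) highest, and 3 and 8 were left in the same order.

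Receptor, channel and growth factor genes mostly lay outside bins of 20 or more TCF3 peaks. GABA-A and glutamate receptor genes had a TCF3-only peak in 15 of 45 cases (33.3%, 21.4 to 47.9%), GABRG3 (280), GABRB2 (267) and GABRA4 (166) highest, and 13 were left. Their median highest score was 141, against 69 over all genes with such a peak, but GABRG3 and GABRB2 were among the highest peaks seen beforehand. GABRA4 and GABRB1 share a single peak, so its score is counted for both genes. Potassium channel genes had one in 34 of 95 (35.8%, 26.9 to 45.8%), KCNJ2 (225), KCNV1 (166) and KCNA4 (154) highest, and 34 were left. Ephrins and their EPH receptors, which guide axons, had one in 11 of 22 (50%, 30.7 to 69.3%), EPHA7 (264), EPHA6 (178) and EPHA5 (130) highest, and 10 were left. FGF ligand genes had one in 6 of 22 (27.3%), FGF2 (99), FGF18 (71) and FGF3 (70) highest, and 6 were left. None of the ephrin, EPH or FGF genes had a shared TCF3 peak, beside 5.9% of all genes, a share that would give few in lists of this size.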
